A study of Mus musculus with 4 samples.

Results

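Described here are 43 genes of nuclear hormone receptors, a set without the receptor genes that are counted with the circadian clock, such as Nr1d1, Nr1d2 and Rora. A BCL6 peak was taken as belonging to a receptor where the authors' annotation names that gene as the nearest promoter, at any distance. This gave 25 peaks, 6 of the 1785 peaks of the inguinal (subcutaneous) list and 19 of the 3956 peaks of the perigonadal (visceral) list. The peaks were mapped by chromatin immunoprecipitation and sequencing (ChIP-seq) with a custom polyclonal antibody to mouse Bcl6 raised in guinea pig. The chromatin came from adipocyte nuclei of C57BL/6 mice of the genotype Adipoq-Cre;Sun1-sfGFP-myc, in which the adipocyte-restricted Cre switches on a tag on the nuclear envelope. All 4 samples carry this genotype. The inguinal and the perigonadal depot each had 1 BCL6 library and 1 input library, and the inputs were not analysed here. The labels give no sex, age, treatment or number of animals. The peaks do not measure RNA, so the adipocyte origin of the nuclei could not be checked against marker genes.

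Nuclear receptors are transcription factors that carry their own ligand sensor: a DNA-binding domain of zinc fingers is joined to a pocket for a steroid, thyroid hormone, vitamin, fatty acid or sterol. Steroid receptors bind DNA mainly as pairs of themselves, whereas thyroid hormone, vitamin D, retinoic acid, PPAR and LXR receptors bind together with a retinoid X receptor. Orphan members act without an established hormone. In fat they govern adipocyte formation, lipid storage and the response to sex steroids and glucocorticoids. BCL6 is a zinc finger repressor that recruits corepressors, among them proteins that were first known as partners of unliganded nuclear receptors.

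BCL6 peaks with a receptor as nearest promoter were found for 12 of the 43 genes (27.9%, Wilson 95% interval 16.7 to 42.7%), against 15.4% of protein-coding genes, and 31 had none in either list. Gene length is not matched here, and receptor genes are longer, with a median of 49.7 kb against 17.1 kb for protein-coding genes. The counts by receptor class below are of 3 to 18 genes each and are not matched for length either. The estrogen receptor alpha gene Esr1, the mineralocorticoid receptor gene Nr3c2 and the vitamin D receptor gene Vdr had peaks in both depots, and these were also the receptors with shared peaks, defined as peaks of the 2 lists that overlap by at least 1 bp. Nr4a3 and Rxra had a peak in the inguinal list alone. Nr1h3, Nr2c2, Nr2f1, Rarb, Rorb, Rxrg and Thrb had peaks in the perigonadal list alone. With 1 library in each depot, differences between them could not be tested, and a missing partner says only that no peak was called.

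**Figure D1:**
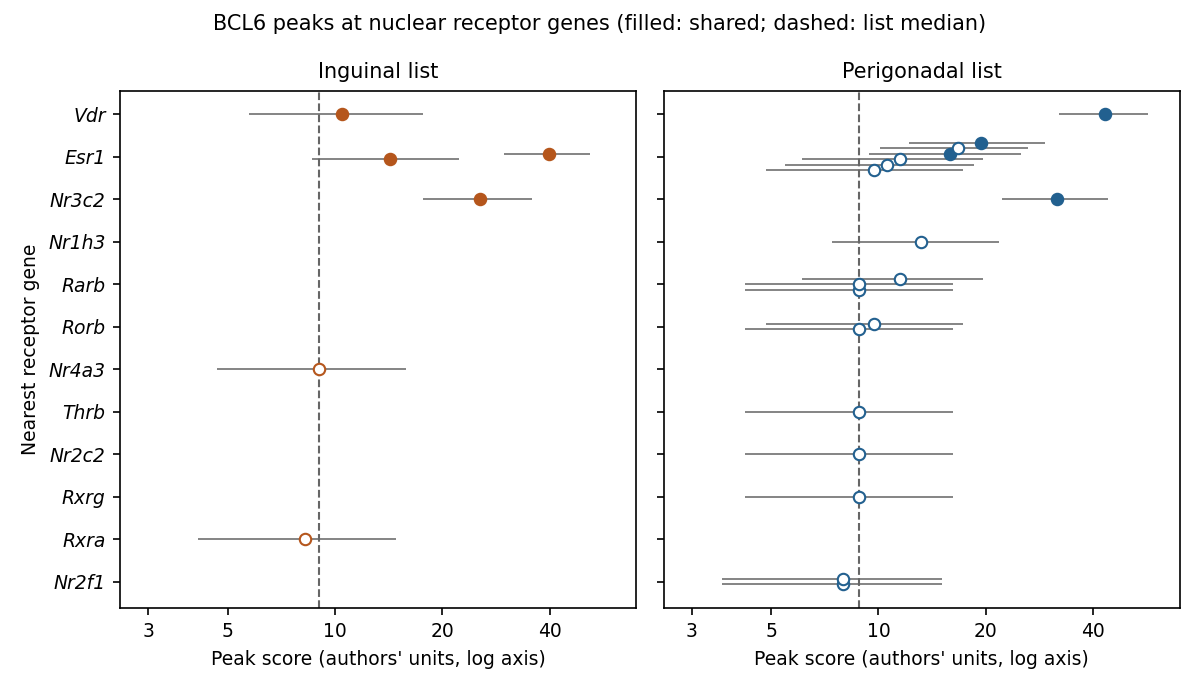
Score of every BCL6 peak whose nearest promoter is a receptor gene, on a log axis, in the inguinal (left) and perigonadal (right) lists. Points are peaks, bars are Poisson 95% intervals of their tags, filled points are shared peaks, and the dashed line is the median of all peaks of that list, 9.03 and 8.82. Esr1, Nr3c2 and Vdr hold the peaks of highest score, and the peaks of the receptors found in a single list lie between 7.93 and 13.2.

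Scores are the authors' peak heights, which are scaled within each list. They are whole multiples of a step, 0.752 for inguinal and 0.881 for perigonadal peaks, and a multiple was read as 1 sequenced tag. Each score below carries the exact Poisson 95% interval of its tags. The intervals cover counting error only, and the sequencing depth of the libraries is unknown. Peaks of equal score share a rank, which is the first rank of the tie.

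Esr1 was the receptor with the most sites, with 2 inguinal and 6 perigonadal peaks. The gene covers chr10:4611989-5005633 on GRCm38, the assembly behind mm10, a length of 394 kb. RefSeq gives it an upstream start at 4611989 and a downstream start at 4710158, and the authors' distances are counted from the downstream one. All of its peaks lay inside the gene, in introns, and outside annotated repeats.

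The tallest Esr1 site lay 33.0 kb downstream of that start. It had a score of 39.9 (29.9 to 52.1, 53 tags) at chr10:4743026-4743228 in the inguinal list and 19.4 (12.2 to 29.4, 22 tags) at chr10:4743021-4743205 in the perigonadal list. It ranked 25 among inguinal and 279 among perigonadal peaks, tied with peaks down to ranks 28 and 310. Its centres in the 2 lists were 14 bp apart. It was the tallest receptor peak of the inguinal list, while in the perigonadal list the peaks of Vdr and Nr3c2 stood above it.

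A second Esr1 site lay about 66 kb downstream. Its score was 14.3 (8.60 to 22.3, 19 tags) at chr10:4776106-4776308 in the inguinal list and 15.9 (9.40 to 25.1, 18 tags) at chr10:4775933-4776117 in the perigonadal list. These peaks overlapped by 12 bp and their centres were 182 bp apart, the largest distance of all 508 shared pairs, whose median was 28 bp. Both had a low focus ratio, the authors' fraction for how closely tags gather around the peak centre. It was 0.688 for the inguinal peak (list median 0.812) and 0.583 for the perigonadal peak (list median 0.833). Sharing at this site rests on the 1 bp rule, and with an overlap of at least 50% of the shorter peak it was lost.

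The other 4 perigonadal peaks of Esr1 had no inguinal partner. The one 36.8 kb downstream, 3.85 kb from the tallest site, scored 16.7 (10.1 to 26.2, 19 tags). The one 17.2 kb downstream scored 9.70 (4.84 to 17.3, 11 tags). Those 38.1 and 26.8 kb upstream of the downstream start, between the 2 starts, scored 11.5 (6.10 to 19.6, 13 tags) and 10.6 (5.47 to 18.5, 12 tags). From the first to the last, the perigonadal peaks of the gene spanned 104 kb.

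**Figure D2:**
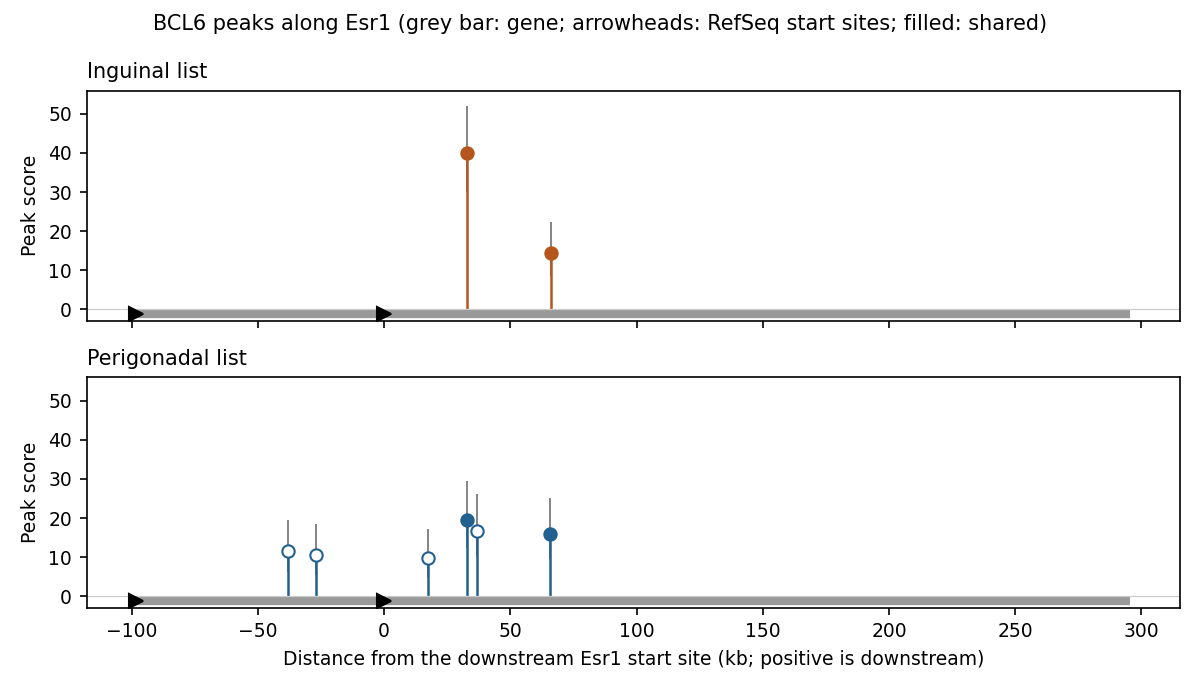
BCL6 peaks along Esr1 in the inguinal (upper) and perigonadal (lower) lists. The horizontal axis is the distance in kb from the downstream start site, the vertical axis the peak score with its Poisson 95% interval, the grey bar the gene and the arrowheads the RefSeq start sites. The tallest site, at 33.0 kb, is common to both lists, and the peaks upstream of the downstream start are in the perigonadal list.

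Several peaks at a gene were uncommon. In the perigonadal list 81.5% of the 3180 nearest genes had 1 peak, and 6 genes, Esr1 among them, had 6 or more. In the inguinal list 164 of 1593 genes had at least 2 peaks. Long genes offer more room, so peaks inside genes were also counted per length. Esr1 was singled out beforehand for its several sites, so its place among genes is a description and not a test. Among 2428 protein-coding genes of at least 100 kb, Esr1 held 1.52 perigonadal peaks per 100 kb against 0.187 over all these genes together, and 1.73% of them reached its value. Rorb followed with 1.11 (2 peaks), a value that 3.29% of the genes reached. In the inguinal list Esr1 held 0.508 peaks per 100 kb against 0.0808, and 9.35% of the genes reached its value.

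The sequences around the start sites were set beside the peaks. RefSeq promoter windows, from 250 bases before to 50 after a start, were at hand for 39 of the 43 receptors and numbered 60. No BCL6 peak overlapped any of them, and the nearest was 1281 bp away, at Nr4a3. The share of all RefSeq windows that a peak overlaps was not counted, so nothing particular to receptors can be read from this. Each window was searched for TTCNNNGAA, the palindromic core in the sites of BCL6 and STAT factors, which reads alike on both strands. It was present in 6 of the 60 receptor windows (10.0%), against 8.30% of all 32851 windows. Among receptors with a peak, the downstream promoter of Esr1 and the promoter of Rarb held it. The other windows with it were those of Esrrb, Nr0b2, Nr6a1 and Rara, which were the nearest promoter of no peak. The windows below are those of Esr1 and Rarb, from which their peak distances are counted, and that of Nr4a3, the receptor with the peak nearest to its start. They are written 5′ to 3′ on the strand of the gene (GRCm38.p6, RefSeq), with the motif in capitals.
Esr1, downstream start, chr10:4709908-4710207, plus strand: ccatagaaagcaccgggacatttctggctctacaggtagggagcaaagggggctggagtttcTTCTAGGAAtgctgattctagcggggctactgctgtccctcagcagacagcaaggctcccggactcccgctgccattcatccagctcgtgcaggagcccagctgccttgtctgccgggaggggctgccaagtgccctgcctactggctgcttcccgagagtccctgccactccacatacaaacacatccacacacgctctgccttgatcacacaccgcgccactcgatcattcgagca
Rarb, chr14:16575427-16575726, minus strand: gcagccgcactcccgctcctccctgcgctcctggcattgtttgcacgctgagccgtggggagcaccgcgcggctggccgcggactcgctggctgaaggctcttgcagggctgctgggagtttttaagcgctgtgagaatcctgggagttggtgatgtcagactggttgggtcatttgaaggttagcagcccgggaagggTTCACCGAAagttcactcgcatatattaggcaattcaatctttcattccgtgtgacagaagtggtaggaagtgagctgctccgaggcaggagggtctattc
Nr4a3, chr4:48045055-48045354, plus strand, with no match: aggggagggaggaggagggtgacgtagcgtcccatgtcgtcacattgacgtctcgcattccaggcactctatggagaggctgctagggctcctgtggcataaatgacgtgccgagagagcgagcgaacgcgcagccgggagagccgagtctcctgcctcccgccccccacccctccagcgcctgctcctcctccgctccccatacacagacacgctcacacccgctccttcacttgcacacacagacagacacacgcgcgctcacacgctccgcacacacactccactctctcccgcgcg
The match begins 188 bases before the start in Esr1 and 51 bases before it in Rarb. A match is a description of these letters and no evidence of binding. The nearest Esr1 peak was 17.2 kb from the start beside that match.

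The second steroid receptor with peaks was Nr3c2, whose product binds aldosterone and, in fat, also glucocorticoids. Its site lay far inside the gene, in intron 6 of 8, about 285 kb from the promoter. The score was 25.6 (17.7 to 35.7, 34 tags) at chr8:77187908-77188110 in the inguinal list and 31.7 (22.2 to 43.9, 36 tags) at chr8:77187864-77188048 in the perigonadal list. It ranked 96 and 85 in those lists, so that it was among the tallest 5.66% of inguinal and 2.38% of perigonadal peaks. The centres were 53 bp apart. Of the 5 steroid receptor genes, Esr1 and Nr3c2 had peaks in both depots. Over all protein-coding genes 15.4% had a peak in either list. The estrogen receptor beta gene Esr2, the progesterone receptor gene Pgr and the glucocorticoid receptor gene Nr3c1 were the nearest promoter of no peak in either list.

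Among receptors for hormones and vitamins that pair with a retinoid X receptor, 3 of 6 had a peak, against 15.4% of protein-coding genes. Vdr stood first. Its site lay in intron 3 of 9, 29 kb downstream of the start and inside a gene of 53.9 kb. The score was 10.5 (5.76 to 17.7, 14 tags) at chr15:97878857-97879059 in the inguinal list and 43.2 (32.0 to 57.1, 49 tags) at chr15:97878843-97879027 in the perigonadal list. In the inguinal list it ranked 530, tied with peaks down to rank 633, and in the perigonadal list it ranked 43. Among the 508 shared sites alone, its rank was 389 by inguinal and 42 by perigonadal score. The tallest Esr1 site stood the other way in that order, at 25 by inguinal and 207 by perigonadal score, and the Nr3c2 site held ranks of 95 and 77. Scores of the 2 lists are not on a common scale, so these ranks give the order within each list and no change between depots.

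**Figure D3:**
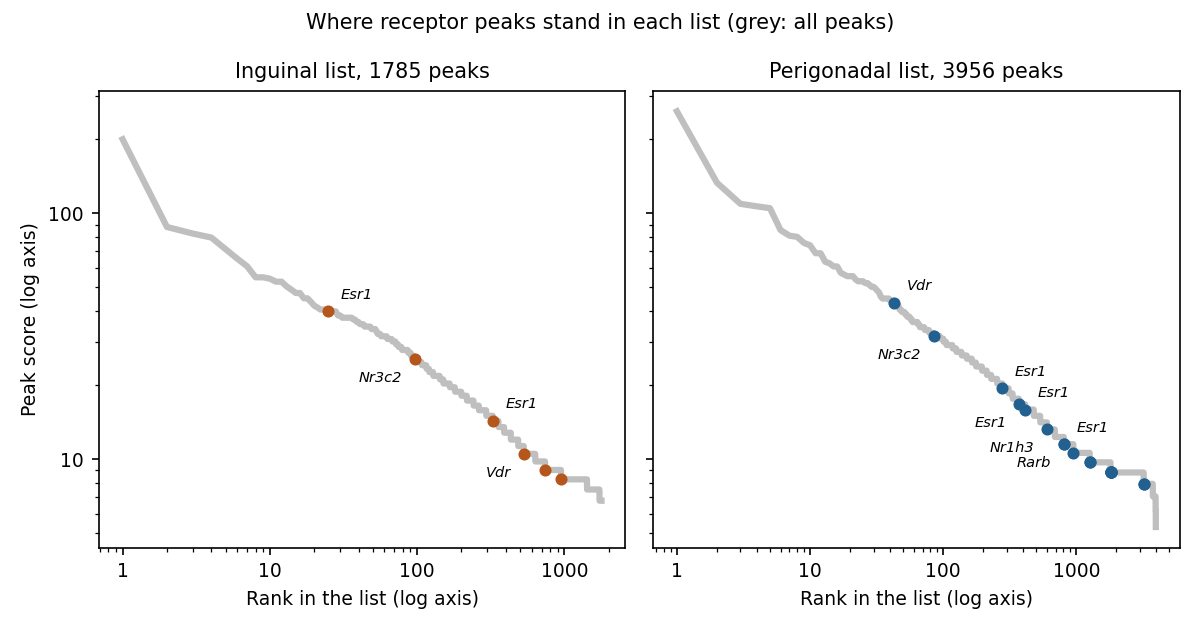
Score against rank, both on log axes, for all peaks (grey) of the inguinal (left) and perigonadal (right) lists, with receptor peaks as points named by gene for those of higher score. The tallest Esr1 site ranks 25 in the inguinal list, Vdr ranks 43 and Nr3c2 85 in the perigonadal list, and the inguinal Nr3c2 peak ranks 96. Most of the other receptor peaks lie lower on the curves. Each rank is the first of its tie.

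Rarb and Thrb, which encode receptors for retinoic acid and thyroid hormone, had perigonadal peaks of low score. Rarb had 3, all in introns of a gene of 651 kb. The one 55.5 kb downstream of the start scored 11.5 (6.10 to 19.6, 13 tags). The one 49.1 kb downstream and the one 193 kb upstream of the start, which lies within a longer transcript, scored 8.82 each (4.23 to 16.2, 10 tags). The Rarb peak at 49.1 kb lay in an LTR repeat. The peak of Thrb, 119 kb upstream of the nearest start but in intron 2 of 9 of a longer transcript, scored 8.82 as well and lay in a LINE repeat. A score of 8.82 is the median of the perigonadal list, and 1398 of its peaks have it. The genes Rara, Rarg and Thra were the nearest promoter of no peak.

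The retinoid X receptors themselves, the common partners of the receptors above, had single low peaks outside the gene. Rxra had an inguinal peak 39.7 kb upstream at chr2:27637422-27637624 with a score of 8.27 (4.13 to 14.8, 11 tags). Rxrg had a perigonadal peak 30.4 kb downstream of its start at chr1:167648599-167648783 with a score of 8.82 (4.23 to 16.2, 10 tags). Rxrb had none. Both peaks were intergenic and at or below the median score of their list.

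Of the 8 lipid and xenobiotic sensors, Nr1h3 alone was the nearest promoter of a peak. It encodes LXR alpha, an oxysterol sensor that induces cholesterol efflux and fatty acid synthesis genes. The perigonadal peak lay in intron 7 of 9, 5.83 kb from the start, at chr2:91189113-91189297. It had a score of 13.2 (7.40 to 21.8, 15 tags) and rank 603, tied with peaks down to rank 689. The genes of the PPAR group, Ppara, Ppard and Pparg, were the nearest promoter of no peak. Pparg encodes the receptor that drives adipocyte formation, and no peak of either list lay within its 130 kb or within 10 kb of either end. Nr1h2, Nr1h4, Nr1i2 and Nr1i3, the genes of LXR beta, the bile acid receptor FXR, PXR and CAR, also had none.

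Among the 18 other orphan receptors, 4 had a peak in either list, against 15.4% of protein-coding genes. Nr4a3 encodes NOR-1, an orphan receptor induced early by hormones and stress. Its inguinal peak lay in intron 1 of 7, 1.43 kb downstream of the start, at chr4:48046635-48046837, and scored 9.03 (4.66 to 15.8, 12 tags). It was the sole receptor peak within 5 kb of a promoter. Rorb, which encodes a ROR receptor best known from retina and brain, had perigonadal peaks 23.1 and 54.7 kb from its start with scores of 9.70 (4.84 to 17.3, 11 tags) and 8.82 (4.23 to 16.2, 10 tags), both in introns.

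Nr2c2, the gene of the testicular receptor TR4, had a perigonadal peak in intron 1 of 14 with a score of 8.82, in a SINE repeat. Nr2f1, the gene of COUP-TFI, had perigonadal peaks with a score of 7.93 each (3.63 to 15.1, 9 tags). One lay 20.2 kb upstream, in a LINE repeat within an intron of a non-coding transcript, and the other 932 kb upstream in intergenic sequence. Scores of 7.93 rank 3205 or lower in that list. Nr2c1, Nr2e1, Nr2e3, Nr2f2, Nr2f6, Nr4a1, Nr4a2, Nr5a1, Nr5a2, Nr6a1, Hnf4a, Hnf4g, Nr0b1 and Nr0b2 had no peak, nor did Esrra, Esrrb and Esrrg, the estrogen-related receptor genes.

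The nearest promoter is not always that of the gene a peak lies in. Counted by gene body, with 10 kb added at either end, 4 more receptors had a perigonadal peak, while Nr2f1 lost its perigonadal and Rxra its inguinal one. In Esrrg, the gene of an estrogen-related receptor of oxidative tissues, a peak in intron 3 of 6 scored 13.2 (7.40 to 21.8, 15 tags), with a non-coding gene as nearest promoter 109 kb away. In Ppara, the gene of the fatty acid receptor that controls fat oxidation, a peak in the last exon, in the 3′ UTR, scored 8.82, and Cdpf1 was nearest. In Ppard a peak in intron 2 of 7 scored 7.05 (3.04 to 13.9, 8 tags). Near Thra, a peak 7.86 kb beyond the gene scored 15.9 (9.40 to 25.1, 18 tags), and its nearest promoter, 1.58 kb away, is that of the clock receptor gene Nr1d1. None of these peaks was shared. By this rule 4 of 43 receptors had an inguinal peak (9.30%, 3.68 to 21.6%), against 5.81% of protein-coding genes, and 13 a perigonadal peak (30.2%, 18.6 to 45.1%), against 12.2%. A longer gene has more room under this rule, and genes of like length were not set beside the receptors for it.

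In counts, 5 of 43 receptors had an inguinal peak (11.6%, 5.07 to 24.5%), against 6.15% of 21896 protein-coding genes. A perigonadal peak was found for 10 of 43 (23.3%, 13.2 to 37.7%), against 12.3% of protein-coding genes. A shared peak was found for 3 of 43 (6.98%, 2.40 to 18.6%), against 1.86% of protein-coding genes. The interval includes the share of all genes for inguinal peaks, while for perigonadal and for shared peaks the share of all genes lies just below the interval. Peaks of more than 12 tags were found for 3 of 43 receptors in the inguinal list (6.98%, 2.40 to 18.6%), against 2.63%, and for 5 of 43 in the perigonadal list (11.6%, 5.07 to 24.5%), against 3.29%, which lies below the interval. Receptor genes are also long, with a median of 49.7 kb against 17.1 kb for protein-coding genes.

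The receptors were also set beside protein-coding genes of like length. Of the 12 receptor genes of at least 100 kb, 2 had an inguinal peak (16.7%, 4.70 to 44.8%), against 16.6% of protein-coding genes of that length. In the perigonadal list 5 of 12 had one (41.7%, 19.3 to 68.0%), against 32.6%. Of the 31 receptor genes under 100 kb, 3 had an inguinal peak (9.68%, 3.35 to 24.9%), against 4.85%, and 5 a perigonadal peak (16.1%, 7.09 to 32.6%), against 9.74%. Each of these intervals includes the share of protein-coding genes of that length class. Shared peaks were found for 2 of the 12 long receptor genes (16.7%, 4.70 to 44.8%), against 5.23%, and for 1 of the 31 shorter ones (3.23%, 0.572 to 16.2%), against 1.44%. Inguinal peaks of more than 12 tags were found for the same numbers of receptors, against 7.33% of long and 2.04% of shorter protein-coding genes. Perigonadal peaks of more than 12 tags were found for 3 of the 12 long receptor genes (25.0%, 8.89 to 53.2%), against 8.32%, and for 2 of the 31 shorter ones (6.45%, 1.79 to 20.7%), against 2.67%. For shared peaks and for tall peaks, those of more than 12 tags, the share of the length class lies outside the interval in 1 case. It lies just below it, for tall perigonadal peaks of long genes, where 12 receptors were counted. This difference was not tested, and it hangs on 1 peak. Of the 3 receptors, Esr1, Nr3c2 and Rarb, the last is counted through a single peak of 13 tags. For 2 of 12 the interval, 4.70 to 44.8%, includes 8.32%. Receptors with a perigonadal peak had a median length of 131 kb, against 46.5 kb for those without one.

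**Figure D4:**
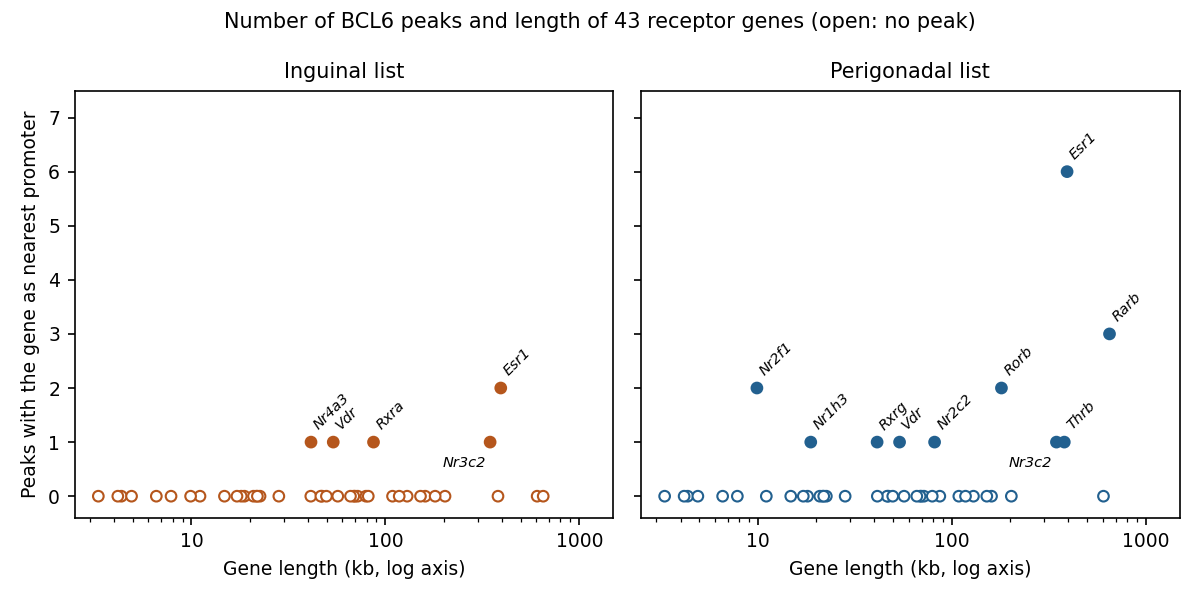
Number of inguinal (left) and perigonadal (right) peaks with a receptor gene as nearest promoter, against the length of that gene in kb on a log axis. Each point is 1 of the 43 receptor genes and open points have no peak. Esr1 has 6 perigonadal peaks, while Rarb, a longer gene of 651 kb, has 3 and Esrrg, of 606 kb, has none by this rule.

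Introns held a larger share of the receptor peaks than of the lists as a whole, without a comparison to peaks of genes of like length. Receptors with a perigonadal peak had a median length of 131 kb, against 43.1 kb for all protein-coding genes with one. In the inguinal list these lengths were 86.9 and 47.4 kb. Introns held 5 of 6 inguinal receptor peaks (83.3%, 43.6 to 97.0%) against 47.0% of the list, and 17 of 19 perigonadal ones (89.5%, 68.6 to 97.1%) against 47.1%. The inguinal interval includes the share of its list and the perigonadal interval does not, though 6 of the perigonadal peaks are of the 1 gene Esr1 and are not independent. Within 5 kb of a promoter lay 1 of 6 and 0 of 19 receptor peaks, against 16.6% and 17.3% of the lists. Distances beyond 50 kb were held by 2 of 6 and 7 of 19, or 33.3% and 36.8%, against 36.0% and 37.6%. Annotated repeats held 0 of 6 and 4 of 19 receptor peaks, against 21.1% and 24.0% of the lists.

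Sharing between depots covered 4 of 6 inguinal receptor peaks (66.7%, 30.0 to 90.3%), against 28.5% of the inguinal list. It covered 4 of 19 perigonadal receptor peaks (21.1%, 8.51 to 43.3%), against 12.8% of the perigonadal list. These are the sites of Esr1, Nr3c2 and Vdr. All 4 of the inguinal receptor peaks of more than 12 tags were shared (interval 51 to 100%), against 59.1% of such inguinal peaks. Of the 8 perigonadal ones 4 were shared (interval 21.5 to 78.5%), against 43.6%. Both intervals include the share of such peaks in the list. Of the 4 shared receptor peaks in each list, 2 are of the 1 gene Esr1 and are not independent. The second Esr1 site is shared by an overlap of 12 bp. Of the receptor peaks of up to 12 tags, 0 of 2 inguinal and 0 of 11 perigonadal ones were shared, and few such peaks were shared in the lists as a whole, 6.88% of the inguinal and 3.13% of the perigonadal ones.

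Genes that work with the receptors were described in the same way. Among 20 coregulators, 5 were the nearest promoter of an inguinal peak and 4 of a perigonadal one, against 6.15% and 12.3% of protein-coding genes. The tallest was a shared site in intron 2 of 22 of Ncoa1, the gene of the coactivator SRC-1, with scores of 30.8 (22.1 to 41.8) in the inguinal and 28.2 (19.3 to 39.8) in the perigonadal list. Ncoa1 had a further perigonadal peak 32.6 kb upstream with 22.9 (15.0 to 33.6), which overlaps an inguinal peak of another nearest promoter, and one in intron 1 of 22 with 10.6 (5.47 to 18.5). Inguinal peaks of Ppargc1b, the gene of the coactivator PGC-1 beta, Nrip1, the gene of the corepressor RIP140, and Ppargc1a scored 15.0, 14.3 and 8.27. They were intergenic and lay 41.8, 236 and 206 kb upstream of the start. The perigonadal peak of Ncoa2, 19.5 kb downstream, scored 9.70. Those of Ppargc1a, 1.79 kb downstream and 103 kb upstream, scored 8.82 each. Tbl1xr1 had 1 inguinal peak of 8.27, 464 kb upstream, and 1 perigonadal peak of 7.05, 593 kb upstream.

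Among 23 genes of ligand supply and transport, 2 had inguinal and 5 had perigonadal peaks. Aldh1a3, the gene of a retinaldehyde dehydrogenase that makes retinoic acid, had 2 shared sites upstream of its start. The nearer, about 15.6 kb away, scored 11.3 (6.32 to 18.6) in the inguinal and 22.9 (15.0 to 33.6) in the perigonadal list. The farther, about 37.7 kb away, scored 9.03 and 10.6. Dio2, whose enzyme activates thyroid hormone, had inguinal peaks of 9.03 and 7.52 and a perigonadal peak of 7.93 at another place. The inguinal peaks of Dio2 lay 85.7 and 116 kb upstream of its start. Perigonadal peaks of Cyp26b1, Cyp26a1 and Hsd17b12 scored 9.70, 8.82 and 8.82. They lay 213 kb upstream, 15.4 kb downstream and 54.6 kb downstream of the start.

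Among 18 genes known to respond to these receptors, 2 had inguinal and 6 had perigonadal peaks, and 0 had a shared one. The inguinal peaks, of the LXR target Abca1 and the lipid droplet gene Cidec, scored 10.5 and 9.03 and lay 52.9 and 0.775 kb downstream of the start. The tallest perigonadal ones were those of Lpl with 10.6, 6.39 kb downstream, and Srebf1 with 9.70, 20.2 kb upstream. The others, of Tsc22d3, Pdk4, Mylip and Scd1, scored 8.82. That of Pdk4 lay at the promoter, 0.358 kb upstream of the start, and that of Mylip 146 kb upstream. Of the clock receptor genes Nr1d1, Nr1d2 and Rora, Nr1d1 and Rora had perigonadal peaks and none had an inguinal one. Over all protein-coding genes the shares to set beside the counts of these lists and of the coregulators are 6.15% for inguinal, 12.3% for perigonadal and 1.86% for shared peaks. Gene length was not matched for any of the lists, and none was tested.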

How the data were processed

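BCL6 ChIP-seq peak lists of adipocyte nuclei from inguinal and perigonadal fat were used, 1 library per depot. The submitters' processing notes name Bowtie 1.2, HOMER and mm10. Peaks were annotated with annotatePeaks.pl on mm10, per the file headers; the inguinal header names a false discovery rate of 0.001 and the perigonadal header none, so the lists may differ in calling limit. Whether libraries were pooled is not stated there. The peak score, the focus ratio (a fraction) and the distance to the nearest promoter are values the authors deposited. Peaks spanned 202 bp in the inguinal and 184 bp in the perigonadal list.

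Receptor peaks were found by gene name, and Entrez numbers gave the same peaks. All 43 receptors matched the RefSeq gene table of GRCm38.p6, and of the nearest genes 1589 of 1593 inguinal and 3178 of 3180 perigonadal ones did. The step behind the scores was the largest of which they are whole multiples, within 0.005 below a score of 10 and 0.05 above. It held for 100% of inguinal and 99.9% of perigonadal peaks. Overlaps and the step search were tested on simulated peaks. With 1 library per depot no test was run. Every receptor with a peak is named, and from each list of related genes those with a shared peak and up to 3 others per depot by score, with the remaining ones named to complete a count. Some genes of the related lists are not reported here. Receptors and gene lists were chosen with earlier results of these data known. Alternatives covered list length, tag number, assignment and overlap. Shared and tall peaks by gene length were added after the data were seen. Python 3.11.15, pandas 2.3.3, SciPy 1.17.1 and statsmodels 0.14.6 were used.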

Additional observations from a re-analysis of the deposited data

How the results depend on the processing

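Of 40 recomputed counts, 30 stayed within 1.5 times of the value reported. With peaks of more than 12 tags alone, 3 receptors had an inguinal and 5 a perigonadal peak, and 8 perigonadal receptor peaks were left; Esr1, Nr3c2 and Vdr were the 3 in both lists. With the perigonadal list held to 1785 peaks by score, 6 receptors and 11 peaks were left. That cut falls among 546 peaks tied at a score of 9.70, ranks 1261 to 1806. The receptor peaks in this tie, of Rorb and of Esr1 at 17.2 kb, were kept, and Rorb is counted through it alone. With promoters within 50 kb, 12 perigonadal receptor peaks were left, Esr1 had 1 inguinal peak, and 2 receptor peaks of each list were shared, since the Nr3c2 and the second Esr1 site lie farther out. An overlap of 50% of the shorter peak left 3 shared sites. The stricter motif, TTCCNNGAA or TTCNNGGAA, chosen after the data were seen, was in 3 receptor windows, against 4.81% of all windows. The motif was not searched in the peaks, whose sequences were not used here. No paired analysis was possible because each depot has 1 library. Depth is unknown, and most receptor peaks rest on 9 to 15 tags.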
